A study of Mus musculus with 4 samples.

Results

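Mural cells and leukocytes are non-endothelial cells found at retinal vessels. As a check of an endothelial sort, 31 of their marker genes were read, 15 mural and 16 leukocyte. Markers of neurons and glia are not covered here. The members were a list of named genes. Each was located by its RefSeq coordinates among 21631 protein-coding genes of the autosomes and X, and every ATAC-seq peak within the gene or up to 10 kb beyond it, called its window here, was collected from each library. ATAC-seq uses a transposase to insert sequencing adapters into open DNA, and a peak is a stretch where insertions exceed the background of that library. The libraries came from 2000 FACS-sorted retinal endothelial cells each, from C57BL/6 mice labelled P16. Of the 4 libraries, 2 carry the genotype label Zeb1 knockdown, with Zeb1-CKO in their titles, and 2 are labelled control. The labels as used here name neither the Zeb1 allele nor any Cre driver, and they do not tell whether replicates are different animals. The spread between them may therefore be technical.

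The knockdown lists held 13689 and 19886 peaks for replicates 1 and 2, and the control lists held 7608 and 13672. Read depth is unknown, so a gene without a peak may have had too few reads, and control replicate 1 stood apart with the shortest list. At Zeb1, the targeted gene, both knockdown libraries had 1 peak within 1 kb of a gene end, against 0 and 1 in the controls, which does not check the genotype labels. In a sorted bulk sample, fewer cells of a type and less open chromatin per cell cannot be told apart.

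Mural cells are the pericytes and smooth muscle cells that wrap retinal vessels. They share the vessel's basement membrane with the endothelium and respond to its PDGF-B through the receptor encoded by Pdgfrb. Retinal leukocytes are mainly microglia, resident macrophages that depend on the receptor Csf1r and the transcription factor PU.1, along with few perivascular and circulating cells. Genes that define a cell type usually have open chromatin at their start sites in that cell type and closed chromatin in other lineages.

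In each of the 4 libraries, most of the mural and leukocyte genes had no peak in the window. No peak in any library lay within 10 kb of 15 of the 31 members. The mural genes among them were Rgs5 (a regulator of G-protein signalling), Kcnj8 and Abcc9 (the subunits of the vascular ATP-sensitive potassium channel), Anpep (aminopeptidase N), Acta2 (smooth muscle actin), Tagln (transgelin) and Higd1b. The leukocyte genes were Ptprc (CD45, carried by all leukocytes), Cx3cr1 (the fractalkine receptor), C1qb and C1qc (complement chains made by microglia), Csf1r, P2ry12 (a purine receptor of microglia), Cd3e (a T cell receptor subunit) and Lyz2 (lysozyme of myeloid cells). Over all protein-coding genes, 34.2% had no such peak, against 48.4% of the members. At 26 of the 31 members no library had a peak within 1 kb of a gene end, which was 83.9%, against 51.5% of all genes. Peaks in all 4 libraries were found in the windows of 3 members (9.68%), against 32.1% of all genes, and peaks in a single library in those of 7 (22.6%), against 7.79%. These shares are descriptions of 4 libraries and were not tested against each other.

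Window peaks were listed at more endothelial markers than members in every library. Both lists were chosen with earlier results of these data known, so this contrast is a description. Of 25 endothelial genes, 25 and 25 had a peak in the window in the knockdown libraries, and 17 and 25 in the controls. Of the 31 members, 8 and 13 had one in the knockdown libraries, and 5 and 8 in the controls. The background over all genes was 54.6% and 61.7% in the knockdown libraries, and 35.4% and 53.9% in the controls. The members' shares of 25.8% and 41.9% in the knockdown libraries and 16.1% and 25.8% in the controls lay below the background of the same library in all 4, and the endothelial shares lay above it in all 4. In control replicate 1, 0 of the 15 mural genes had a window peak, and the leukocyte share of 31.2% was near the background of 35.4%. With only peaks of −log10 q of at least 3, where q is the authors' adjusted p-value, the endothelial count was 4 of 25 (16%) in control replicate 1, below the 20.5% of all genes there. At gene ends 2 and 2 members had a peak in the knockdown libraries and 1 and 1 in the controls, or 6.45% and 6.45%, and 3.23% and 3.23%. The background at gene ends was 39.5% and 45.2% in the knockdown libraries and 22.0% and 38.5% in the controls. Endothelial markers had gene-end peaks in 10 and 14 of 25 genes in the knockdown libraries, or 40% and 56%. In the controls they had them in 7 and 12, or 28% and 48%. The 40% in knockdown replicate 1 was near the background of that library. At 11 of the 25 (44%) no library had a gene-end peak, against 51.5% of all genes. The median gene length was 10929 bp for the members, 22472 bp for the endothelial markers and 17329 bp for all genes, so the windows of the members were also shorter. The part that length plays in the window shares was not tested.

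A gene-end peak was present in all 4 libraries at 7 of the 25 endothelial markers (28%), against 20.9% of all genes. The ranks of these marker peaks varied widely, given as percentiles counted from the strongest peak of each list by the authors' −log10 p. Slc2a1, the glucose transporter of the barrier, stood at 19.7 and 17.4 in the knockdown libraries, and at 35.0 and 14.6 in the controls. Cldn5, the barrier claudin, named after its values were seen, stood at 23.9 and 22.4 in the knockdown libraries, and at 15.5 and 84.6 in the controls. In their weakest library the others stood at 50.1 for the VE-cadherin gene Cdh5, 73.2 for the receptor gene Tie1, 77.4 for Clec14a and 80.3 for Cd34. The seventh, Ushbp1, stood at 47.0, and its peaks were nearest to another gene. All 25 endothelial markers had a window peak in both knockdown libraries and in control replicate 2. In control replicate 1, 8 of them had none, namely Pecam1, Emcn, Robo4, Vwf, Sox17, Fli1, Icam2 and Plvap. Esam, an endothelial adhesion molecule, was the 1 endothelial marker with a gene-end peak in both knockdown libraries and neither control. This was 4.0% of the 25, near the 3.8% of all genes. The Esam gene-end peaks stood at percentiles 88.1 and 59.6 in the knockdown libraries, and its window held 1 and 2 peaks in the controls.

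**Figure D1:**
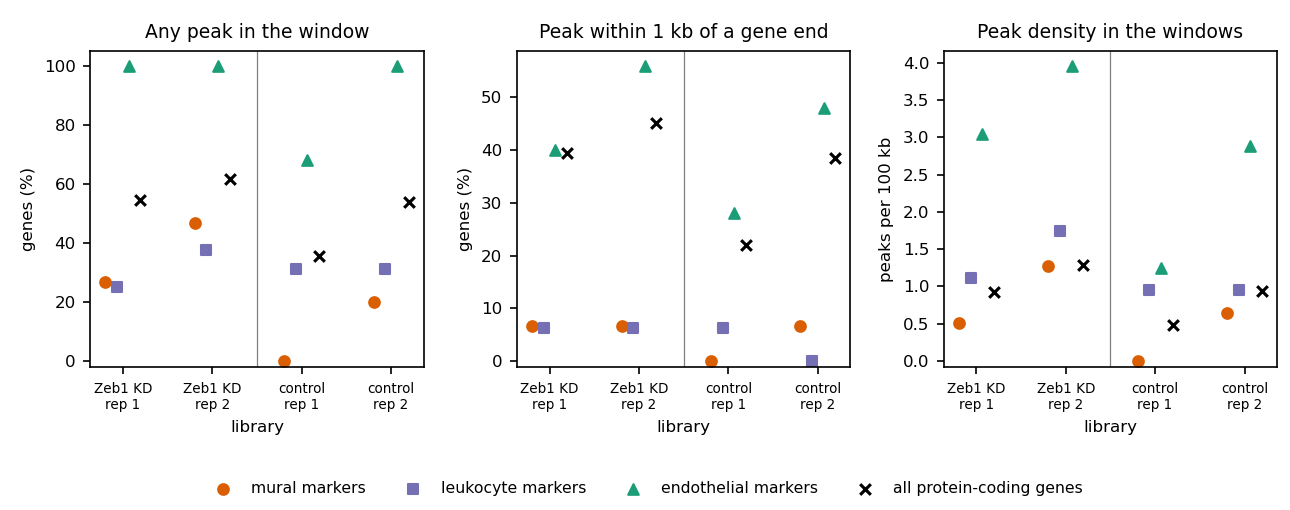
Share of genes with any peak in the window (left, %), share with a peak within 1 kb of a gene end (middle, %) and number of peaks per 100 kb of window (right) for each marker list and for all protein-coding genes, 1 point per library. Mural and leukocyte gene-end shares lie between 0 and 6.67% in every library, and all genes lie between 22.0% and 45.2%.

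Peak density gave a different picture from gene ends. The members' windows, 1413.42 kb in all, held 11 and 21 peaks in the knockdown libraries and 6 and 11 in the controls, or 0.778 and 1.49, and 0.425 and 0.778 peaks per 100 kb. The windows of all protein-coding genes held 0.923 and 1.29 peaks per 100 kb in the knockdown libraries, and 0.484 and 0.933 in the controls. The members' windows were therefore below that density in 3 libraries and above it in knockdown replicate 2. Endothelial windows held 3.04 and 3.96 peaks per 100 kb in the knockdown libraries, and 1.25 and 2.88 in the controls. Mural windows had 0.511 and 1.28 in the knockdown libraries and 0 and 0.638 in the controls. Leukocyte windows had 1.11 and 1.75 in the knockdown libraries and 0.952 and 0.952 in the controls. Mural windows thus lay below the density of all genes in every library, and leukocyte windows above it in every library. The mural value in knockdown replicate 2 and the leukocyte value in control replicate 2 were near it.

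Most peaks shared between libraries in these windows lay nearest to a neighbouring gene. Merging the peaks of the 4 libraries where they overlapped or touched gave 26 regions in the members' windows, none of them counted for 2 members. For 14 of them the nearest protein-coding gene end was that of another gene, and for 12 it was the member's own. Of the 14 neighbour regions, 10 were held by 2 or more libraries and 4 by all 4. Of the 12 own regions, 2 were held by 2 libraries and 10 by 1 library. No member had a region of its own in 3 or 4 libraries. Over all genes, 23.9% had an own peak in all 4 libraries and 41.5% had none in any, against 0 and 22 (71.0%) of the 31 members. An own peak in a single library was listed for 7 members (22.6%), against 9.2% of all genes. Among the 25 endothelial markers 14 had an own peak in all 4 libraries, and Ushbp1 alone had none.

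The own peaks also ranked low. In the same percentiles, the 14 peaks of the own regions had a median of 87.3 and ranged from 34.7 to 99.8. The 35 peaks of the neighbour regions had a median of 33.0 and ranged from 4.0 to 96.9. In all, 13 of the 14 own peaks lay in the weaker part of their list, past percentile 50, against 11 of the 35 neighbour peaks. A region was counted here once for each library that held it, so shared neighbour regions weigh more. The kinds of region also differed, as 7 of the 14 neighbour regions overlapped a gene end, against 1 of the 12 own regions. Ranks of own peaks over all genes were not computed.

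**Figure D2:**
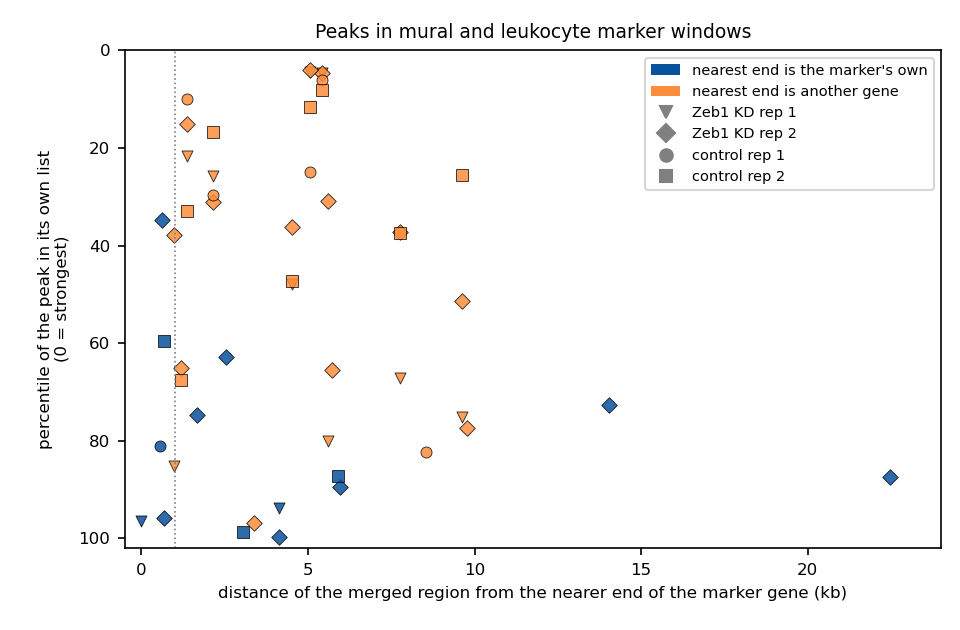
Percentile of each peak in its own list (y axis, strongest at the top) against the distance in kb of its merged region from the nearer end of the marker gene (x axis), for all peaks in the 31 windows, with the dotted line at 1 kb. Blue points, whose nearest gene end is the marker's own, sit at percentiles 34.7 to 99.8, and orange points, nearest to another gene, reach percentile 4.0.

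Among the contractile and cytoskeletal genes of mural cells, a peak touched a gene end at Des alone, the gene of the intermediate filament desmin (chromosome 1, 75360292 to 75368579, mm10). In knockdown replicate 1 it ran from 75360206 to 75360468 across the gene start, at percentile 96.4, with the authors' fold enrichment of 3.42 and −log10 q of 1.56. Knockdown replicate 2 and both controls listed none. Of the 22 members with a promoter window in the RefSeq table, this was the 1 with a peak in that window in any library. A promoter window spans 250 bases before to 50 after the gene start. Over the 17274 genes with such a window, 48.4% had a peak there in at least 1 library and 20.9% in all 4. Of the 15 endothelial markers with such a window, 12 had a peak there in at least 1 library and 3 had none. In all 4 libraries 5 of the 15 (33.3%) had one, Slc2a1 and Tie1 among them.

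The promoter windows below (RefSeq, GRCm38.p6, the assembly of mm10) set Des beside Acta2 and Cx3cr1, which had no peak there, and beside the endothelial genes Slc2a1 and Tie1, which had one in all 4 libraries. They are written 5′ to 3′ on the strand of the gene. Capitals mark matches on either strand to CACCTG (the E2-box that Zeb1 binds), GAGGAA (the core of PU.1 sites) or the strict CArG box. The CArG box is bound by serum response factor in smooth muscle genes, and its strict form is CCWWWWWWGG, where W is A or T.
Des, chr1:75360042-75360341, plus strand: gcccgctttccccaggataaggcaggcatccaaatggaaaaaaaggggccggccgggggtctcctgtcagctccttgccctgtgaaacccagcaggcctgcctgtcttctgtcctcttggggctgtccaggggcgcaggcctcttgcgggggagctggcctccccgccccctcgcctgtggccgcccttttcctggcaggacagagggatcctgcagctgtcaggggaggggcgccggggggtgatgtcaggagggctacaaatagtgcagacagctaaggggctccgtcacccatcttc
Acta2, chr19:34255324-34255623, minus strand: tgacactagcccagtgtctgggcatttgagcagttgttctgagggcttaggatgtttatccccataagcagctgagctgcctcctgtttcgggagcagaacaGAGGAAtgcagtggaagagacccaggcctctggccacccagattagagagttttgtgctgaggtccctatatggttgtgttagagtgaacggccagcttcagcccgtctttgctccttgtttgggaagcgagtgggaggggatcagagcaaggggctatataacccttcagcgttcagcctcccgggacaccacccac
Cx3cr1, chr9:120068247-120068546, minus strand: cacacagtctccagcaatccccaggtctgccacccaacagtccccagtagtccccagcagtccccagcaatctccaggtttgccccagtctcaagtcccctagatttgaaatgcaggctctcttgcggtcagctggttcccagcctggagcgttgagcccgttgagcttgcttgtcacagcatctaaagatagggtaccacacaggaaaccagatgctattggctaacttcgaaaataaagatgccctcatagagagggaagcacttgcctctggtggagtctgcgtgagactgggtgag
Slc2a1, chr4:119108495-119108794, plus strand: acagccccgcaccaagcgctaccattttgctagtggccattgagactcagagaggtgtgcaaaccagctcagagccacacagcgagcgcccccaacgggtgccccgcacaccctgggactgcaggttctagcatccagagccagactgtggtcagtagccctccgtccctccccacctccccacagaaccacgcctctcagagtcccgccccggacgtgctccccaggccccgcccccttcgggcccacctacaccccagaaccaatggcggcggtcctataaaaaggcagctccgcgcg
Tie1, chr4:118489800-118490099, minus strand: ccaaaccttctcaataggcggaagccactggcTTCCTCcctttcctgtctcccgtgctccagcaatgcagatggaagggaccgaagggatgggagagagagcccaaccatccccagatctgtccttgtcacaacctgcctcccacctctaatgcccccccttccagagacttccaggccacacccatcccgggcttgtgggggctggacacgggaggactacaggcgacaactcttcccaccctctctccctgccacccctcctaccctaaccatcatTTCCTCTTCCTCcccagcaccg
In the Des window the peak of knockdown replicate 1 covered 136 of the 300 bases. The Slc2a1 window was covered by 290 and 263 bases in the knockdown libraries, and by 179 and 289 in the controls. Tie1 was covered by 300 and 300 bases in the knockdown libraries, and by 300 and 232 in the controls. The Acta2 window held 1 match to GAGGAA and the Tie1 window 3, 2 of them end to end. The Des, Cx3cr1 and Slc2a1 windows held no match to any of the 3 motifs. CACCTG matched 4 of the members' 23 windows (17.4%), against 19.9% of the 21045 windows of all genes. GAGGAA matched 8 of 12 leukocyte windows (66.7%), 3 of 11 mural windows (27.3%) and 27.2% of all. Its last 4 letters are the core of ETS-family sites in general, and 47.4% of the 19 endothelial windows matched too. The CArG box, in its strict form, matched 0 of the 23 windows and 1.54% of all. Forms that differ by 1 base were not searched, among them ccctatatgg and ccttgtttgg in the Acta2 window. These matches describe letters, not binding.

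Myh11, the myosin heavy chain of smooth muscle (chromosome 16, 14194527 to 14292188), had 1 peak in knockdown replicate 2 and 1 in control replicate 2, and 0 in each replicate 1 library. The merged region, 14291226 to 14291504, lay inside the gene, 684 bp from its high-coordinate end. Its peaks stood at percentile 95.8 in knockdown replicate 2 and 59.5 in control replicate 2. It was the 1 own region of a member that a knockdown and a control library shared. Only the replicate 2 libraries held it, as was so for 7.66% of the 25263 merged regions of the genome. Replicate 2 had the longer list in each group.

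Cnn1 (calponin, an actin-binding protein) had 1 and 1 peaks in the knockdown libraries, and 0 and 2 in the controls. Of these, the region held by both knockdown libraries and control replicate 2 overlapped an end of Elof1, a transcription elongation factor gene, 7776 bp from Cnn1. The other Cnn1 peak, in control replicate 2, stood at percentile 98.6. Acta2 and Tagln, the remaining contractile genes, had 0 peaks in every library.

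Notch3, the Notch receptor of mural cells (chromosome 17, 32120820 to 32166896), was the 1 member with peaks in both knockdown libraries and neither control. It had 1 and 3 peaks in the knockdown libraries, against 0 and 0 in the controls. The region that the knockdown libraries shared, 32162085 to 32162761, lay inside the gene, 4135 bp from its high-coordinate end, where the RefSeq table places the start. Its peaks were among the weakest of their lists, at percentile 93.8 with a −log10 q of 1.70 in knockdown replicate 1 and at 99.8 with 1.13 in knockdown replicate 2. The other 2 Notch3 peaks, in knockdown replicate 2, stood at percentiles 62.9 and 87.5. Over all protein-coding genes 3.96% showed this knockdown-only pattern in the window, and 1 of 31 members (3.23%) is close to it. The reverse pattern was met by 0 members and by 0.19% of all genes. Leaving out a library moved the knockdown-only count of members to 5 without knockdown replicate 1, 2 without knockdown replicate 2, 1 without control replicate 1 and 4 without control replicate 2.

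Cspg4, Pdgfrb and Tbx18 each had a single peak in knockdown replicate 2 and none elsewhere. Cspg4, which encodes the NG2 proteoglycan, had 1 peak inside the gene at percentile 89.5. At Pdgfrb the 1 peak, at percentile 96.9, lay 3366 bp outside the gene and 2952 bp from Gm52351, a predicted gene. Tbx18, a T-box transcription factor of mural cells, had 1 peak 1679 bp outside the gene at percentile 74.7. Vtn, the gene of the matrix protein vitronectin, had 1 and 2 peaks in the knockdown libraries, and 0 and 2 in the controls. They overlapped ends of Sarm1, an NAD hydrolase gene, and of Poldip2 and Tmem199, 1189 and 9610 bp from Vtn.

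Counted over the 15 mural genes, 4 and 7 had a peak in the window in the knockdown libraries, against 0 and 3 in the controls. The means were 5.5 ± 2.12 and 1.5 ± 2.12 (SD, n = 2 each), a knockdown minus control difference of 4. This difference was -0.5 with the 7608 strongest peaks per list, 0.5 for peaks with −log10 q no lower than 3, and 5.5, 2.5, 2.5 and 5.5 without knockdown replicates 1 and 2 and control replicates 1 and 2 in turn. With 2 libraries against 2 the exact permutation test (two-sided) cannot go below p = 0.333, the value reached here. The groups did not overlap, and neither did those of all genes (54.6% and 61.7% in the knockdown libraries, 35.4% and 53.9% in the controls), whose lists differ in length. With own peaks alone, 2 and 4 mural genes had one in the knockdown libraries and 0 and 2 in the controls, and the groups overlapped. The background for own peaks was 45.9% and 53.5% of all genes in the knockdown libraries, and 27.3% and 44.8% in the controls.

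Leukocyte genes gave 4 and 6 members with a peak in the window in the knockdown libraries, and 5 and 5 in the controls, out of 16. The difference was 0 (two-sided exact permutation test, p = 1). The background over all genes was 54.6% and 61.7% in the knockdown libraries, and 35.4% and 53.9% in the controls. The leukocyte share lay below it in every library, but at 31.2% it was near it in control replicate 1. In 5 of the 8 leukocyte windows with any peak, every peak was nearest to another gene.

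Aif1 (Iba1, a calcium-binding protein of microglia and macrophages) had 1 peak in each library. It overlapped an end of Prrc2a, an RNA-binding protein gene, 5408 bp from Aif1, at percentiles 4.70 and 4.64 in the knockdown libraries and 5.98 and 8.03 in the controls. Cd68, a lysosomal protein gene of macrophages, had 2 peaks in every library. One overlapped an end of Mpdu1, 1353 bp away, and the other an end of Eif4a1, a translation initiation helicase gene, 5072 bp away. The Eif4a1 peaks stood at percentiles 4.37 and 4.0 in the knockdown libraries, and 24.9 and 11.6 in the controls. Neither Aif1 nor Cd68 had a peak within 1 kb of its own ends.

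Cd79a, a subunit of the B cell receptor, had 3 and 3 peaks in the knockdown libraries, against 1 and 1 in the controls. All were nearest to Arhgef1, a guanine nucleotide exchange factor gene widely active in blood cells. A region held by all 4 libraries lay 1020 bp from the end of Arhgef1, and 2 more were held by the knockdown libraries alone. The knockdown-only region that overlapped the end of Arhgef1, 24902839 to 24903278 on chromosome 7, decides the gene-end count of Cd79a. Its edge was 981 bp from Cd79a in knockdown replicate 1, just inside the 1 kb window. In knockdown replicate 2 the peak began 30 bp further away and fell outside. The percentiles were 85.1 in knockdown replicate 1 and 37.9 in knockdown replicate 2. With the Notch3 region these were the 3 knockdown-only regions in the members' windows, 11.5% of the 26, against 10.1% of the regions of the genome. Without knockdown replicate 1 there were 12 such regions, without control replicate 2 there were 6.

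Tyrobp, the DAP12 adaptor of microglia, had 1 and 2 peaks in the knockdown libraries and 0 and 1 in the controls, all nearest to Nfkbid, an NF-kB inhibitor gene. Tmem119, a microglial membrane protein gene, had 1 peak in knockdown replicate 2, 9765 bp away and nearest to Iscu.

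Of the leukocyte genes 3 had a peak of their own, each in 1 library. Spi1, which encodes PU.1 (chromosome 2, 91082374 to 91115759), had 2 own peaks in knockdown replicate 2 and none in the other libraries. One, 91083005 to 91083304, lay inside the gene 631 bp from its low-coordinate end, at percentile 34.7 with a −log10 q of 5.59, the best rank of any own peak of a member. The other stood at percentile 72.6. A further Spi1 window peak in control replicate 1 was nearest to Mybpc3. Itgam (CD11b, an integrin of myeloid cells) had 1 peak in control replicate 1, 555 bp beyond a gene end, at percentile 81.0. C1qa, the third complement C1q chain, had 1 peak in control replicate 2 at percentile 87.2, and the C1q chains C1qb and C1qc had none.

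Single-library peaks thus made up 10 of the 12 own regions. Regions held by knockdown replicate 2 alone, the longest list, were 9 of the 26 regions in the members' windows (34.6%), against 22.6% over the genome. With only peaks of −log10 q of at least 3, own peaks remained at Notch3 and Spi1 in knockdown replicate 2 and at Myh11 in control replicate 2, and at 0 members in the replicate 1 libraries. With the 7608 strongest peaks of each library, they remained at Spi1 in knockdown replicate 2 and Itgam in control replicate 1. Under that equal length 20 and 12 of 25 endothelial markers had a peak in the window in the knockdown libraries, and 17 and 15 in the controls. The members had 4 and 6 of 31 in the knockdown libraries (12.9% and 19.4%) and 5 and 6 in the controls (16.1% and 19.4%). Over all genes the window shares at equal length were 38.8% and 38.4% in the knockdown libraries, and 35.4% and 39.0% in the controls. Gene-end peaks at equal length were present at 7 and 4 of 25 endothelial markers (28% and 16%) in the knockdown libraries, against 26.5% and 25.7% of all genes. In the controls they were present at 7 and 5 of 25, against 22.0% and 26% of all genes, and the endothelial share was below that of all genes in both replicate 2 libraries.

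Other genes of the same cells were read from lists that do not overlap the members. Gene-end peaks were present at 8 and 9 of 26 other mural genes in knockdown libraries (30.8% and 34.6%), and at 2 and 5 in the controls (7.69% and 19.2%). The background was 39.5% and 45.2% in the knockdown libraries, and 22.0% and 38.5% in the controls. Foxc1 and Ebf1, transcription factors that are not confined to mural cells, had one in all 4. No peak lay in the window of 8 of the 26 (30.8%, against 34.2% of all genes), namely Foxs1, Foxd1, Aspn, Atp13a5, Gucy1a1, Myl9, Myocd and Steap4. Gene ends carried a peak in some library at 12 (46.2%, against 48.5%), and both shares were near the background. The knockdown-only pattern in the window was met by 4 of the 26 (15.4%, against 3.96% of all genes), namely Art3, Cd248, Heyl and Tbx2. With own peaks alone it was met by 1 of the 26 (3.85%, Tbx2), against 4.58% of all genes. At gene ends it was met by Tbx2, a T-box factor, alone, where the background was 3.8%. The Tbx2 peaks stood at percentiles 98.1 and 78.5.

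Gene-end peaks were present at 3 and 4 of 34 other leukocyte genes in knockdown libraries (8.82% and 11.8%), and at 1 and 2 in the controls (2.94% and 5.88%). Over all genes the shares were 39.5% and 45.2% in the knockdown libraries, and 22.0% and 38.5% in the controls. No peak lay in the window of 18 of the 34, which was 52.9%, against 48.4% of the members and 34.2% of all genes. Among them were Laptm5, Trem2, Siglech, Sall1, Itgb2 and Adgre1. Knockdown-only and control-only genes numbered 0 each in this list.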

How the data were processed

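ATAC-seq was run on 4 libraries of sorted retinal endothelial cells, 2 from Zeb1 knockdown and 2 from control mice. The groups and replicate numbers were taken from the sample titles. The build was mm10, and MACS2 2.1.1, bedtools 2.26.0, Bowtie2 2.3.2, SAMtools 1.3, Trimmomatic 0.36 and Picard 2.9.2 were used, per the submitters' processing notes. Their settings, the filter on the lists and any shift for the transposase offset are not given in the sources used here.

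Each library has its own deposited broadPeak list, with replicates not pooled. For each peak the authors give a fold enrichment (a ratio over the library's own background), the −log10 of its p and of its q, and a score. The deposited −log10 p ranked peaks within a list, and the score was not used. No file gives read counts, so no interval or floor could be computed.

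The members and gene lists were chosen with earlier results of these data known. Gene ends came from the RefSeq table (GRCm38.p6), and a peak counted if 1 bp overlapped a window. The nearest gene was the protein-coding gene with an end nearest to the peak or merged region. Group means of counts were compared with a two-sided exact permutation test over the 4 libraries, which have 6 arrangements. Patterns of single genes had no test. All 31 members are described. The result for 1 gene of another list is not reported here. Genes of other lists were named, up to 6 each, if a gene-end peak was present in all 4 libraries or in both of 1 group alone, in order of the weaker percentile, and neighbours if nearest to a region held by 2 or more libraries. Single-library neighbours, and the genes of those lists without peaks or with a knockdown-only window, were named after their values were seen. Functions were tested on simulated peaks (Python 3.11.15, pandas 2.3.3).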

Additional observations from a re-analysis of the deposited data

How the results depend on the processing

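All differences are knockdown minus control mean counts of genes or peaks. No alternative gave a p below 0.333 in the exact permutation test. With equal list lengths, the difference turned to -0.5 for members with a window peak (4 as reported), -0.5 for mural members (4) and -0.5 for endothelial gene ends (2.5), and to 0 for member gene ends (1), and the counts of knockdown-only members and regions were 0 and 0. With a −log10 q of at least 3, member gene ends gave 0, leukocyte members 1 (0 as reported), and knockdown-only members and regions 0 and 0. The same setting gave 1.5 for members with a window peak, 0.5 for mural members, 3 for window peaks (7.5 as reported) and 5.5 for endothelial gene ends. For leukocyte members the difference was 0.5 with gene bodies alone, 0.5 with 5 kb flanks and -0.5 with own peaks. Knockdown-only regions numbered 1 with gene bodies alone and 1 with own peaks. Leaving out each library in turn gave differences of -1 to 1 for leukocyte members, 0 to 5 for endothelial gene ends, 1.5 to 6.5 for members with a window peak, 2.5 to 5.5 for mural members and 2.5 to 12.5 for window peaks, with 1 to 5 knockdown-only members, 0 to 1 control-only members and 3 to 12 knockdown-only regions. The cause of these shifts was not tested. The first 2 settings also shortened the lists, except that of control replicate 1 at equal length. Gene-end windows of 3 kb, the 50% overlap and the 1 kb merging changed no direction, and no knockdown-only or control-only count beyond 1.5 times. Replicate numbers are not stated to pair animals, and deviations of same-numbered libraries correlated at 0.0908 over all genes. With the replicate number as a block, the smallest p was 0.5, and the member difference of 4 had p = 0.5 in the exact permutation test. Depth is unknown, so weak or rare signal in these windows was not detectable below the authors' threshold.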
